A study of Danio rerio with 10 samples.

Results

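The SR proteins and the hnRNP proteins are the best known families of splicing regulators. Their genes were taken here as every row of the deposited table whose symbol begins with srsf or hnrnp, whatever the case of the letters. That gave 43 rows of the 32233 in the table, 19 of them srsf and 24 hnrnp, under 39 distinct symbols. Expression was measured by RNA sequencing of rRNA-depleted total RNA from gata1-positive erythroid cells of zebrafish embryos, collected at 24 hours post fertilization. The tested libraries were 5 from sf3b1 mutants (replicates 1, 3, 4, 5 and 6), and they were compared with 5 from siblings, titled wild type (replicates 2, 3, 4, 5 and 6). The sources used here give neither the strain, the sf3b1 allele, the number of embryos per library nor the reporter behind the gata1 sort. The labels do not say whether libraries stem from different clutches or embryo pools, so the p-values rest on a spread between libraries that may be technical.

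SR proteins carry one or more RNA recognition motifs and a tail rich in arginine and serine, and they mostly bind exons and help the core splicing machinery to recognise nearby splice sites. The hnRNP proteins coat nascent transcripts and often act in the opposite sense, by hiding splice sites or looping exons out, though members of either family can do both. sf3b1, the mutated gene, encodes a subunit of the U2 small nuclear ribonucleoprotein, the particle that binds the intron branch point whose use these regulators help to decide. Splice site choice is known to change as red cell precursors mature, and SF3B1 and SRSF2 are both mutated in human myelodysplastic syndromes.

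The labels were checked first. The sf3b1 transcript (ENSDARG00000056138) lay at 17.6, 15.996, 20.6, 19.4 and 21.3 FPKM in mutants, against 41.0, 36.3, 42.3, 37.5 and 43.9 FPKM in siblings (two-sided exact permutation p = 0.0079, the smallest that this design can give). FPKM scale the fragments of a gene to its transcript length and to the size of the library. The genotype tag of sibling 2 says mutant, against its title, while its sf3b1 level lay among those of the other siblings. Markers of erythroid cells were present in all libraries, with summed levels of 2452 to 8666 FPKM in mutants and 4929 to 22063 FPKM in siblings over 10 genes. Of these erythroid markers 1, epb41b, fell at a limma adjusted p under 0.05, while 6 were lower and 0 higher in mutants at an unadjusted p under 0.05, and the 4 globin genes had log2 fold changes of -1.81 to -1.095. The erythroid sum of sibling 2, 4929 FPKM, lay among the mutants, and the other siblings, at 11189 FPKM or more, lay above every mutant. Of 8 neutrophil and macrophage markers 6 fell, where 8.74% of all genes did, with sums of 147.3 to 316.6 FPKM in mutants and 365.5 to 712.8 FPKM in siblings. The 14 epidermal markers summed to 438.7 to 1317 FPKM in mutants and 391.9 to 911.0 FPKM in siblings and were highest in mutant 1 and sibling 2, icn2 being listed at 0 in some libraries. Neural and endothelial markers had overlapping sums in both groups, the neural ones at 32.6 to 95.9 FPKM in mutants against 50.6 to 97.0 FPKM in siblings, the endothelial ones at 73.0 to 94.0 FPKM in mutants against 72.7 to 105.9 FPKM in siblings. The 5 muscle markers summed to 34.6 to 128.0 FPKM in mutants and 75.95 to 278.9 FPKM in siblings, 1 of the 2 tested fell, and myl10 and tnnt3a were listed at 0 in some libraries. The part of these other cells in the results below was not tested, and in sorted bulk samples fewer cells of a type and less RNA per cell cannot be told apart.

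Both families were well expressed. Averaged over the 10 libraries, 6 members had at least 100 FPKM, 27 lay between 10 and 100 FPKM, 8 lay between 1 and 10 FPKM and 2 were under 1 FPKM. The most abundant was srsf2a, an SR protein gene whose human counterpart SRSF2 acts at exonic enhancers, with 467.2 ± 61.1 FPKM in mutants and 335.7 ± 28.6 FPKM in siblings (SD, n = 5 each). It was followed by hnrnpa0l (ENSDARG00000036161), of the hnRNP A group, at 266.2 ± 26.8 FPKM in mutants and 277.2 ± 39.5 FPKM in siblings. srsf2a exceeded hnrnpa0l in 10 of 10 libraries. The next were srsf1a (151.5 ± 34.5 FPKM in mutants and 131.4 ± 18.5 FPKM in siblings) and srsf5a (119.9 ± 25.2 FPKM in mutants and 155.0 ± 34.3 FPKM in siblings), whose ranges overlapped in each group. hnrnpl2, a relative of the CA-repeat binding protein hnRNP L, and hnrnpaba, of the AB group, completed the 6. hnrnpl2 had 120.1 ± 15.6 FPKM in mutants against 86.4 ± 12.4 FPKM in siblings, and hnrnpaba had 86.5 ± 15.5 FPKM in mutants against 115.6 ± 14.7 FPKM in siblings.

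**Figure D1:**
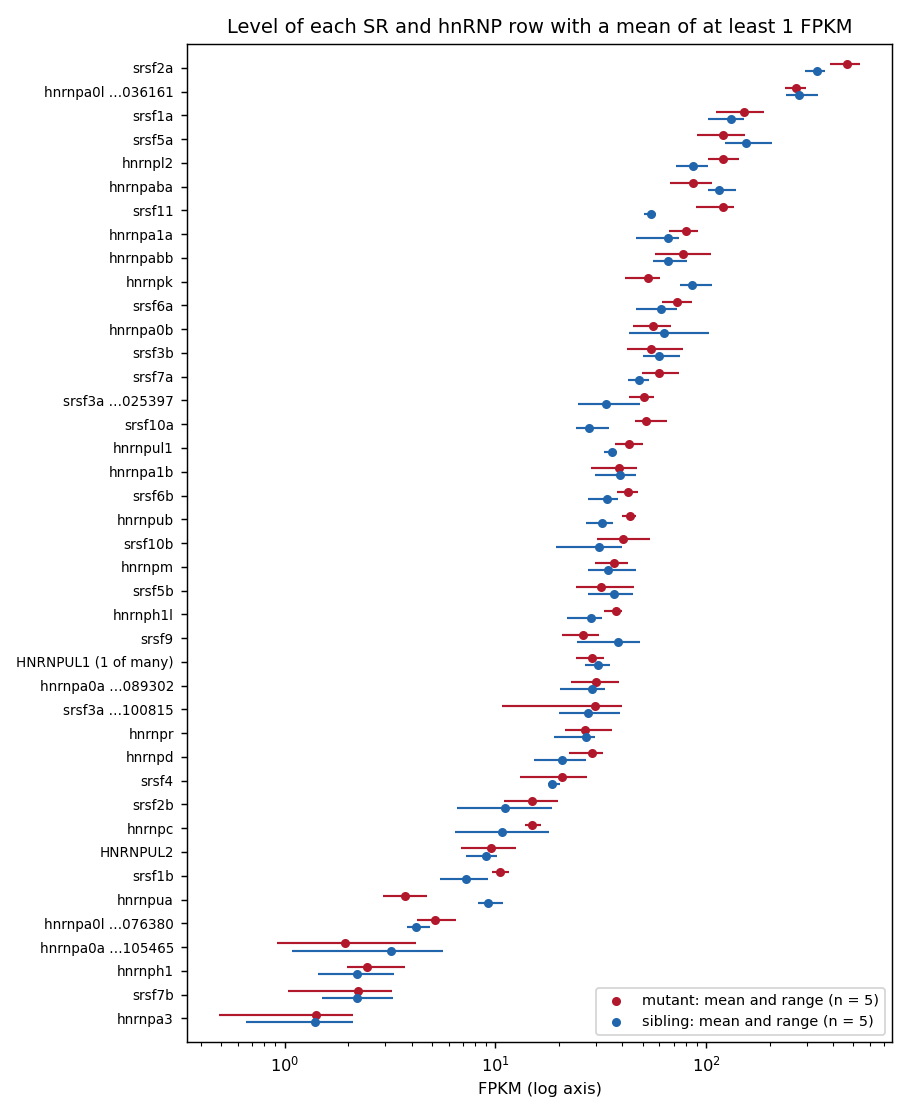
Level in FPKM (log axis) of the 41 SR and hnRNP rows that averaged 1 FPKM or more, ordered by that average; points are group means and lines the lowest to highest of 5 mutant libraries (red, upper) and 5 sibling libraries (blue, lower). srsf2a stands at the top, and srsf11, hnrnpk and hnrnpua are among the rows whose lines do not overlap.

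Summed over its 19 rows, the srsf family held 1367 ± 143.3 FPKM in mutants and 1113 ± 102.0 FPKM in siblings (SD, n = 5 each). The library sums ran from 1213 to 1553 FPKM in mutants and from 963.0 to 1237 FPKM in siblings, so they overlapped. srsf2a alone made up 31.9 to 35.8% of that sum in mutants and 28.4 to 32.0% in siblings. The 24 hnrnp rows summed to 1092 ± 73.3 FPKM in mutants and 1076 ± 66.3 FPKM in siblings. These sums describe the libraries and were not tested.

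The comparison asks how the sf3b1 mutation bears on the transcripts of these regulators. A few members passed the test and most did not. With limma on log2(FPKM + 1) and Benjamini-Hochberg adjustment over all genes tested, 5 of the 41 members that reached a mean of 1 FPKM rose in mutants and 2 fell at an adjusted p under 0.05. Over all 13003 genes tested 5.59% rose and 8.74% fell, and 14.3% were called in either direction, against 17.1% of the tested members. The members' share in either direction was near the background. By direction, 12.2% of the tested members rose and 4.88% fell, from counts of 5 and 2. Only 2 members rose without mutant 3, 4, 5 or 6 or without sibling 3 or 4. With sibling 2 counted as a mutant 1 rose, srsf11, and 1 fell, srsf9. The 2 members that fell as reported were then no longer called, and srsf9 was not called as reported. Of the 18 srsf rows tested 4 rose and 0 fell (1 was lower at an unadjusted p under 0.05), and of the 23 hnrnp rows tested 1 rose and 2 fell. The median log2 fold change was 0.28 for srsf rows, 0.06 for hnrnp rows and -0.06 for all genes. Under median of ratios scaling 3 hnrnp rows rose and 2 fell, and under quantile normalization 2 rose and 2 fell. Over all genes these scalings gave 947 rises with 981 falls and 958 with 1022, against 727 with 1137 as reported.

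**Figure D2:**
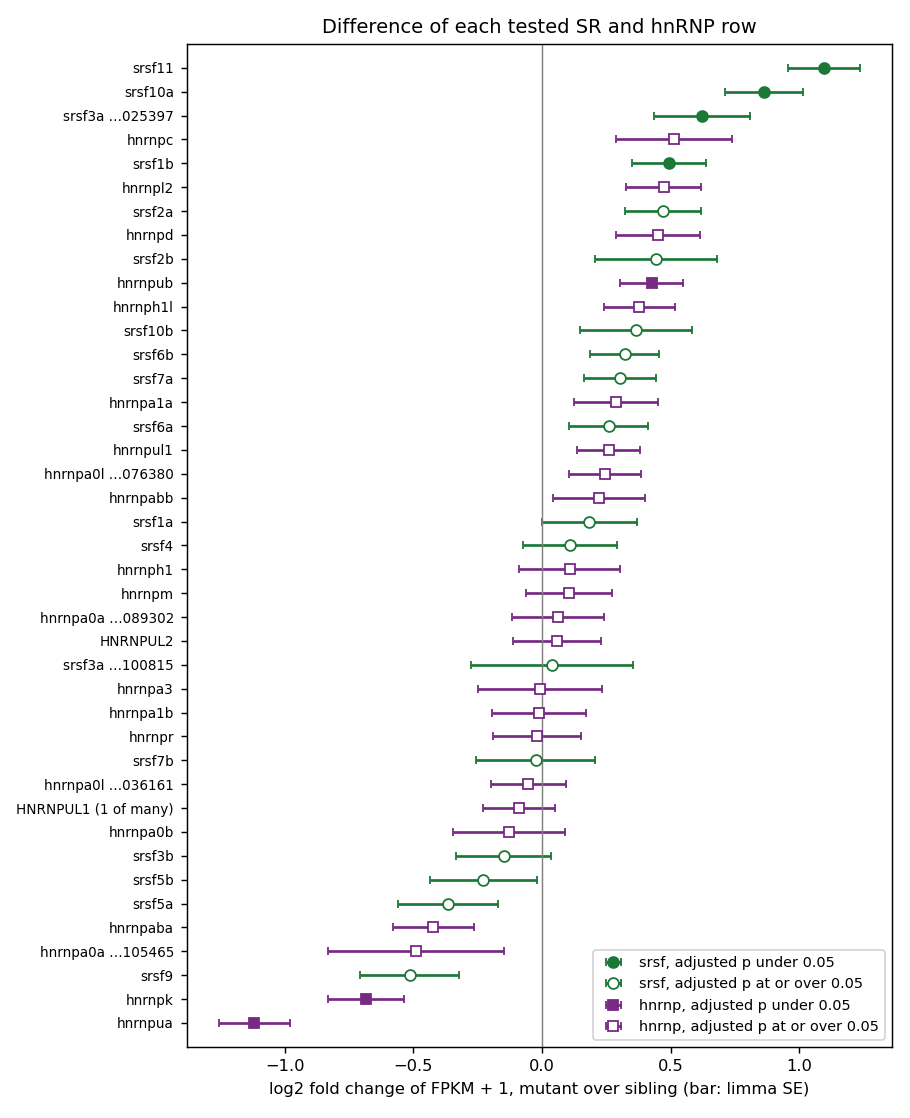
Log2 fold change of FPKM + 1 (mutant over sibling) with its limma standard error for the 41 tested rows, ordered by size; circles are srsf rows, squares hnrnp rows, and filled symbols have an adjusted p under 0.05. srsf11 lies highest at 1.097 and hnrnpua lowest at -1.12. Of the 41 rows 26 are higher in mutants, or 63.4% against 44.5% of all tested genes. That count was 31 under median of ratios scaling, 30 under quantile normalization and 25 without mutant 1. The median log2 fold change of all genes moved too, from -0.058 as reported to 0.002, 0.003 and -0.094. The share of 44.5% is therefore no background for these other counts.

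The largest rise was that of srsf11, which encodes an arginine/serine-rich splicing regulator that in mammals binds the polypyrimidine tract factor U2AF. srsf11 (ENSDARG00000098574, GRCz10 chromosome 11, 45010560 to 45022580) had 89.4, 123.2, 135.5, 134.7 and 116.9 FPKM in mutants, against 54.1, 50.9, 54.6, 58.0 and 57.3 FPKM in siblings. Every mutant library lay well above every sibling library, and mutant 1 was the lowest of its group. Its log2 fold change was 1.097 (SE 0.14, limma adjusted p = 4.97e-04), and its call held under all 22 processing alternatives (adjusted p = 4.55e-05 to 0.049). Its span overlaps 4 other rows, and the sources used here do not say if fragments were assigned by strand. Of those, sos1 averaged 38.8 FPKM in mutants against 44.9 FPKM in siblings and trappc10 averaged 21.1 FPKM in mutants against 23.8 FPKM in siblings, neither past the threshold. pycr1b fell by 1.05 on the log2 scale (limma adjusted p = 0.0156), and si:ch73-100l22.2 was too low to be tested.

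srsf10a was the next. Its human counterpart SRSF10 represses splicing when it loses its phosphates, as in mitosis and heat shock. srsf10a (ENSDARG00000022415, chromosome 16, 52633842 to 52654423) had 64.9, 45.9, 45.8, 55.0 and 46.4 FPKM in mutants, against 24.1, 25.0, 34.5, 25.7 and 30.3 FPKM in siblings. The groups did not overlap, and mutant 1 was the highest of all libraries. The log2 fold change was 0.86 (SE 0.15, limma adjusted p = 0.0034), and the call ended only with sibling 2 counted as a mutant (adjusted p = 0.13). Its sister copy srsf10b had 40.4 ± 10.5 FPKM in mutants and 31.1 ± 7.38 FPKM in siblings and did not pass the test (limma adjusted p = 0.2995).

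srsf1b and srsf3a rose by less, with calls that a single library could end. SRSF1 is the founding member of the SR family, and srsf1b (ENSDARG00000017843, chromosome 21, 39523837 to 39554147) had 11.7, 9.67, 11.1, 10.1 and 10.2 FPKM in mutants, against 7.17, 6.61, 7.83, 5.47 and 9.24 FPKM in siblings. The lowest mutant stood just above the highest sibling, and the log2 fold change was 0.49 (SE 0.14, limma adjusted p = 0.0393). Without any one of the 5 mutant libraries, or without sibling 2, 3, 4 or 5, its adjusted p was 0.0579 to 0.0923. With sibling 2 counted as a mutant the limma adjusted p of srsf1b was 0.182. An overlapping row, pigs, fell by 0.80 on the log2 scale (limma adjusted p = 0.0091). The other copy, srsf1a, was the more abundant one and did not pass the test (limma adjusted p = 0.5582).

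SRSF3 is the smallest SR protein and also works in messenger RNA export, and 3 rows on chromosome 6 carry the symbol srsf3a, one of them overlapping both others. The row ENSDARG00000025397 (41082467 to 41087921) had 45.3, 53.6, 54.2, 56.5 and 43.0 FPKM in mutants, against 31.6, 24.7, 25.7, 48.7 and 35.8 FPKM in siblings. Sibling 5 lay among the mutants, so the groups overlapped, and the log2 fold change was 0.62 (SE 0.19, limma adjusted p = 0.0444). Its adjusted p was 0.0542 to 0.108 without mutant 3, 4, 5 or 6 or without sibling 2, 3, 4 or 6. With sibling 2 counted as a mutant the limma adjusted p of this row was 0.205. The row ENSDARG00000100815 (41082671 to 41093702) had 29.8 ± 11.3 FPKM in mutants and 27.4 ± 7.602 FPKM in siblings, at a log2 fold change of 0.04 (limma adjusted p = 0.9542). Mutant 1 was at 10.8 FPKM, below all other libraries, and without it the log2 fold change was 0.35 (limma adjusted p = 0.245). The row ENSDARG00000102957 was listed at 0 in all libraries. Reads of the 3 rows may be split among them, so each is uncertain. Their sum was 56.1, 83.25, 87.0, 92.5 and 82.8 FPKM in mutants, against 62.7, 47.9, 64.7, 72.4 and 55.96 FPKM in siblings. Mutant 1 lay among the siblings, and the other 4 mutants lay above every sibling.

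The hnRNP U genes moved in opposite directions. hnRNP U, also called scaffold attachment factor A, binds chromatin and nascent RNA and affects splicing broadly in mammals. hnrnpua (ENSDARG00000015206, chromosome 17, 11316506 to 11341400) had 4.72, 2.94, 3.39, 3.88 and 3.64 FPKM in mutants, against 10.9, 8.72, 8.98, 9.20 and 8.23 FPKM in siblings. All mutants lay far below all siblings, and the log2 fold change was -1.12 (SE 0.14, limma adjusted p = 4.33e-04). The call ended only with sibling 2 counted as a mutant (adjusted p = 0.0839), and sibling 2 itself was the highest of all libraries. hnrnpub (ENSDARG00000004735, chromosome 20, 35155755 to 35167597), the more abundant copy, had 39.97, 44.3, 44.7, 46.4 and 41.7 FPKM in mutants, against 34.3, 30.04, 33.5, 36.2 and 26.9 FPKM in siblings. Here every mutant lay above every sibling, at a log2 fold change of 0.43 (SE 0.12, limma adjusted p = 0.0396). This smaller difference had an adjusted p of 0.067 to 0.0899 without mutant 3, 4, 5 or 6 or without sibling 3, 4 or 6, and of 0.123 with sibling 2 counted as a mutant.

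hnrnpk was the other member that fell. Its protein binds runs of cytosine through KH domains and has roles in transcription, splicing and translation. hnrnpk (ENSDARG00000018914, chromosome 8, 49756899 to 49777472) had 57.8, 41.4, 51.6, 53.6 and 60.1 FPKM in mutants, against 75.0, 81.2, 81.0, 84.1 and 107.2 FPKM in siblings. The groups did not overlap, and sibling 6 stood above all others. The log2 fold change was -0.69 (SE 0.15, limma adjusted p = 0.0104), it was -0.60 without sibling 6, and the call ended only with sibling 2 counted as a mutant (adjusted p = 0.0509). A second hnRNP K gene is spelled hnrpkl in the table and so falls outside the naming rule; it was looked at after its values were seen. hnrpkl (ENSDARG00000007034) had 53.0, 47.9, 54.1, 54.0 and 49.3 FPKM in mutants, against 40.02, 34.9, 39.5, 32.9 and 29.3 FPKM in siblings, a log2 fold change of 0.54 (SE 0.13, limma adjusted p = 0.0152). hnrnpk was thus lower and hnrpkl higher in all 5 mutants than in any sibling, and the call of hnrpkl too ended only with sibling 2 counted as a mutant (adjusted p = 0.0526). Also outside the rule, hnrpdl and hnrpl did not pass the test (limma adjusted p = 0.2775 and 0.9319).

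**Figure D3:**
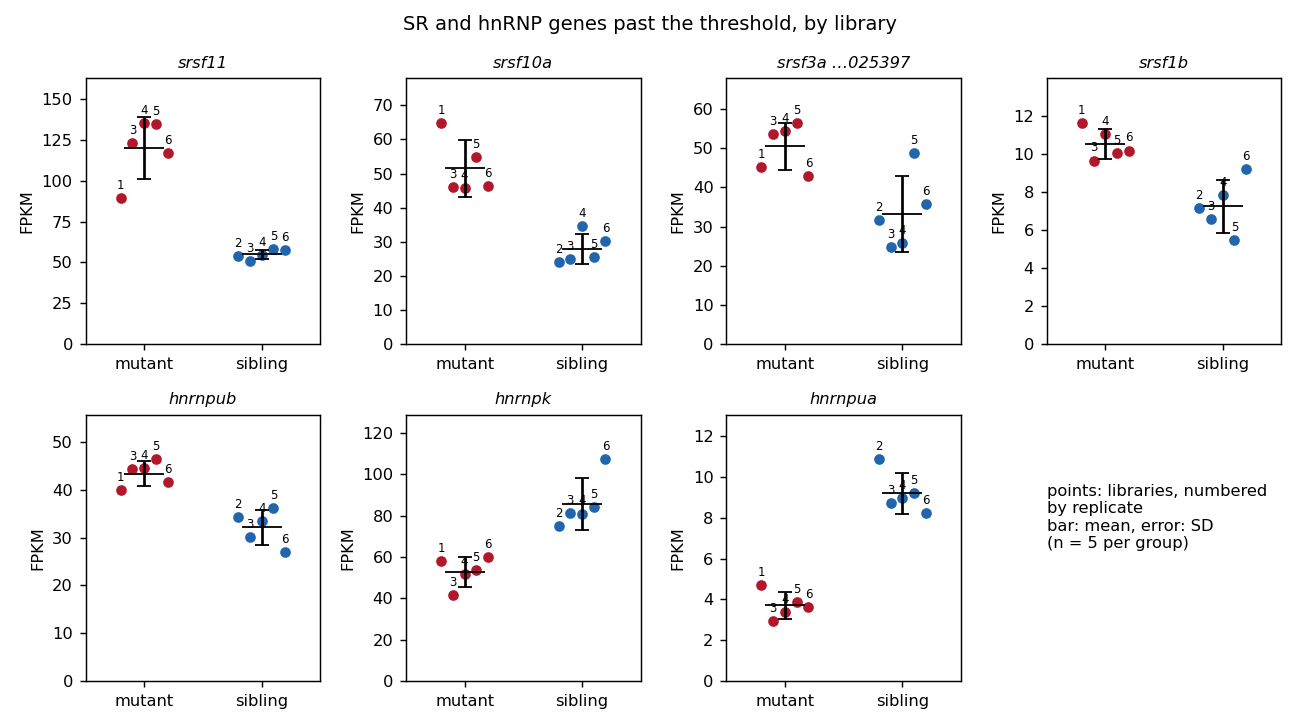
FPKM by library (linear axis from 0) of the 7 rows past the threshold, with 5 mutant libraries in red and 5 sibling libraries in blue, numbered by replicate; bars are means and errors SD. Of the 7, srsf3a alone has overlapping groups, through sibling 5 at 48.7 FPKM.

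The groups did not overlap for 8 of the 41 tested members, 6 with mutants above and 2 with mutants below, against 4.98% of all tested genes above and 7.26% below. Besides 6 of the called rows these were srsf2a and hnrnph1l, which missed the threshold. srsf2a (ENSDARG00000057484, chromosome 12, 31605771 to 31611846) had 439.1, 387.2, 539.2, 516.2 and 454.3 FPKM in mutants, against 365.9, 295.1, 351.2, 318.0 and 348.3 FPKM in siblings. Its lowest mutant, replicate 3, was close to its highest sibling, replicate 2, and the log2 fold change was 0.47 (SE 0.15, limma adjusted p = 0.0519). It passed under 9 of the 22 alternatives, among them all 3 other scalings (adjusted p = 0.017 to 0.0285) and the omission of mutant 1 (0.0484). hnrnph1l, a relative of the G-run binding protein hnRNP H, had 37.2 ± 2.67 FPKM in mutants and 28.5 ± 4.25 FPKM in siblings, at a log2 fold change of 0.38 (limma adjusted p = 0.0856). It passed under 1 of the 22 alternatives, median of ratios scaling (0.0393), and its adjusted p reached 0.172 in others.

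Further members stood near the threshold in at least some settings. hnrnpl2 had 117.3, 101.5, 142.9, 112.5 and 126.4 FPKM in mutants, against 101.9, 80.2, 81.9, 71.6 and 96.2 FPKM in siblings, with the lowest mutant just under the highest sibling. Its log2 fold change was 0.47 (SE 0.15, limma adjusted p = 0.0514), and 7 of 22 alternatives called it, among them the one without sibling 2 (0.0365). srsf9, an SR protein with a short arginine/serine tail, had 31.1, 26.1, 30.3, 22.04 and 20.6 FPKM in mutants, against 24.3, 36.4, 48.7, 39.2 and 41.7 FPKM in siblings. Sibling 2 was the lowest sibling and lay among the mutants, whereas the other siblings were all above them. The log2 fold change of srsf9 was -0.51 (SE 0.19, limma adjusted p = 0.0971). Of 22 alternatives 5 called it lower (adjusted p = 0.0138 to 0.213 over all 22). Array weights gave 0.024, and the others take sibling 2 out of the comparison or relabel it. They were without sibling 2 (0.0212), without both mutant 1 and sibling 2 (0.0138), with sibling 2 counted as a mutant (0.0306) and with a block for the replicate number (0.0186). Since sibling 2 was the sibling among the mutants, these passes are no separate support for a fall. hnrnpaba was at -0.42 (limma adjusted p = 0.0935) and passed under 2 of 22 alternatives, without mutant 1 (0.0477) and with array weights (0.0452). Over the alternatives its adjusted p reached 0.538, and its log2 fold change ran from -0.50 to -0.204.

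**Figure D4:**
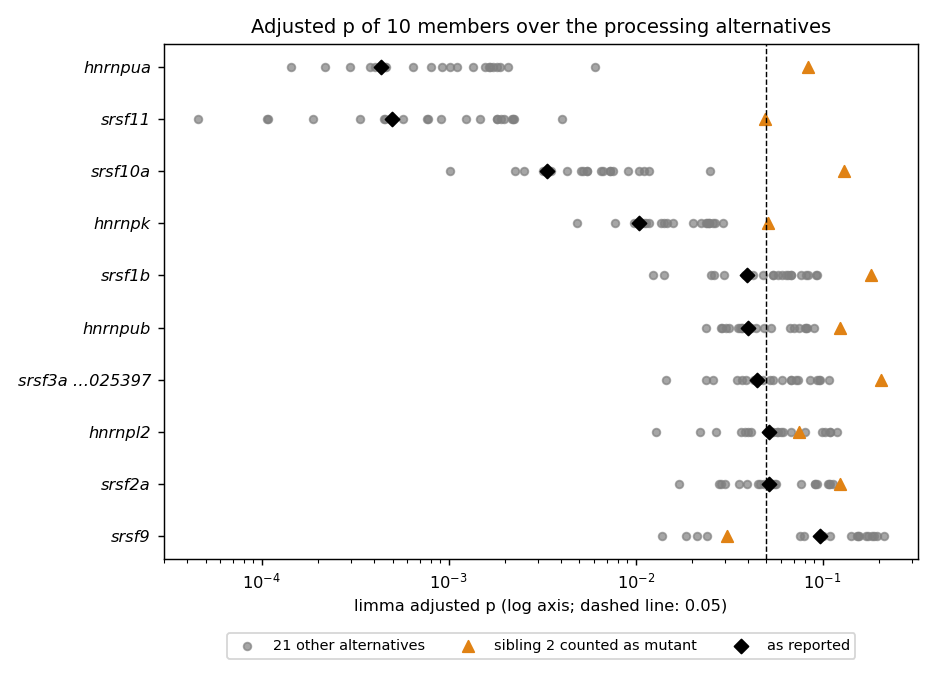
Adjusted p from limma (log axis) of 10 members, the 7 called ones with hnrnpl2, srsf2a and srsf9; black diamonds are the reported values, grey points 21 alternatives, orange triangles sibling 2 counted as a mutant, and the dashed line is 0.05. Apart from the triangles, all points of hnrnpua, srsf11, srsf10a and hnrnpk lie left of the line, while the other 6 rows straddle it.

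The other SR genes did not pass the test. srsf6a, of the SRSF6 copies, had 72.7 ± 9.67 FPKM in mutants against 60.8 ± 9.75 FPKM in siblings, at a limma adjusted p of 0.295. The second copy, srsf6b, had 42.6 ± 4.005 FPKM in mutants against 34.03 ± 4.55 FPKM in siblings, at a limma adjusted p of 0.1371. srsf7a, whose protein carries a zinc knuckle and takes part in messenger RNA export, ran from 49.5 to 74.4 FPKM in mutants against 42.5 to 53.8 FPKM in siblings (limma adjusted p = 0.1778). srsf5a had 152.3, 90.3, 133.9, 123.2 and 99.9 FPKM in mutants, against 167.2, 125.0, 205.9, 122.6 and 154.1 FPKM in siblings, with groups that overlapped (log2 fold change -0.37, limma adjusted p = 0.2386). Mutant means of srsf2b, srsf3b, srsf4 and srsf5b were 14.8, 54.5, 20.8 and 31.6 FPKM, against sibling means of 11.1, 59.7, 18.6 and 36.6 FPKM. srsf7b was scarce, at 1.04 to 3.24 FPKM in mutants against 1.51 to 3.25 FPKM in siblings, and the groups overlapped for all 5 genes.

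Among the remaining hnRNP genes, hnrnpc and hnrnpd came closest to the threshold. hnRNP C packages nascent RNA and binds uridine tracts, and hnrnpc had 13.8, 14.1, 16.4, 14.3 and 16.1 FPKM in mutants, against 6.42, 7.91, 8.97, 12.7 and 17.98 FPKM in siblings. Sibling 6 exceeded every mutant and the other 4 siblings lay below them. The log2 fold change of hnrnpc was 0.51 (SE 0.23, limma adjusted p = 0.1556), and it was 0.70 without sibling 6 (0.0295). Of 22 alternatives only that 1 called hnrnpc (adjusted p up to 0.737), and it leaves out the sibling that went against the difference. hnrnpd, whose mammalian protein AUF1 binds AU-rich elements in unstable messages, had 28.6 ± 3.81 FPKM in mutants and 20.8 ± 4.23 FPKM in siblings (limma adjusted p = 0.0862).

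Genes of the hnRNP A group, which includes the classic splicing silencer hnRNP A1, did not pass the test. hnrnpa1a had 80.1 ± 11.2 FPKM in mutants and 65.8 ± 11.2 FPKM in siblings (limma adjusted p = 0.2763), and its span on chromosome 11 overlaps 9 other rows. hnrnpa1b had 38.7 ± 8.02 FPKM in mutants and 38.9 ± 7.14 FPKM in siblings, and hnrnpa0b had 55.8 ± 9.31 FPKM in mutants against 63.3 ± 23.4 FPKM in siblings. hnrnpa0b and hnrnpa0l are neighbours on chromosome 14, with 1265 bases between them. hnrnpa3, the member on the chromosome of sf3b1, was scarce, at 1.40 ± 0.65 FPKM in mutants and 1.39 ± 0.54 FPKM in siblings.

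The rest were hnrnpabb, hnrnph1, hnrnpm, hnrnpr, hnrnpul1, HNRNPUL1 (1 of many), HNRNPUL2 and both hnrnpa0a rows. Their log2 fold changes ran from -0.49 for the hnrnpa0a row ENSDARG00000105465 to 0.26 for hnrnpul1, and the smallest limma adjusted p was 0.1859, that of hnrnpul1. hnrnph3 was at 0.24 ± 0.22 FPKM in mutants and 0.30 ± 0.11 FPKM in siblings, too low to be tested. In the table of current gene names 3 rows carry a symbol of neither family, so they may not be hnRNP genes. HNRNPUL2 (ENSDARG00000056830) and the hnrnpa0a row ENSDARG00000105465 now have clone names. The chromosome 20 row labelled hnrnpa0l (ENSDARG00000076380) is now gzf1. The gzf1 row had 5.19 ± 0.88 FPKM in mutants and 4.201 ± 0.46 FPKM in siblings. The current names give no symbol for srsf10a (ENSDARG00000022415) or for the srsf3a row ENSDARG00000102957, so these rest on the deposited symbols.

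Many members come as pairs marked a and b, a naming used for copies from the genome duplication of the fish lineage. The origin of each pair was not checked. For 13 row pairs from 11 such genes, log2(FPKM + 1) of the a copy minus that of the b copy was taken per library. It was compared between groups with a two-sided exact permutation test. The pairs were matched by symbol and include the hnrnpa0a row ENSDARG00000105465 over hnrnpa0b. That row overlaps the other hnrnpa0a row and now carries a clone name, so it may not be a copy. The ratio differed most for hnRNP U: hnrnpua minus hnrnpub was -2.84, -3.52, -3.38, -3.28 and -3.20 in mutants and -1.57, -1.68, -1.79, -1.86 and -1.60 in siblings. The groups lay apart, by -1.54 between their means (exact permutation p = 0.0079, adjusted over the 13 pairs p = 0.1032). Since 0.0079 is the smallest p that the design allows, a lone pair cannot pass the adjustment, and 0 of 13 pairs did while 3 had an unadjusted p under 0.05.

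The other 2 of those were hnrnpaba over hnrnpabb and srsf3a (ENSDARG00000025397) over srsf3b. hnrnpaba minus hnrnpabb averaged 0.16 ± 0.46 in mutants and 0.81 ± 0.24 in siblings (exact permutation p = 0.0317, adjusted p = 0.2063). srsf3a minus srsf3b averaged -0.08 ± 0.45 in mutants and -0.85 ± 0.48 in siblings (exact permutation p = 0.0476, adjusted p = 0.2063). For srsf10a over srsf10b the means were 0.37 ± 0.49 in mutants and -0.13 ± 0.26 in siblings (exact permutation p = 0.0952, adjusted p = 0.2476), so unequal change of these copies was not shown. srsf2a exceeded srsf2b by 4.90 ± 0.12 in mutants and 4.87 ± 0.42 in siblings, a difference of 0.03 (exact permutation p = 0.8968).

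**Figure D5:**
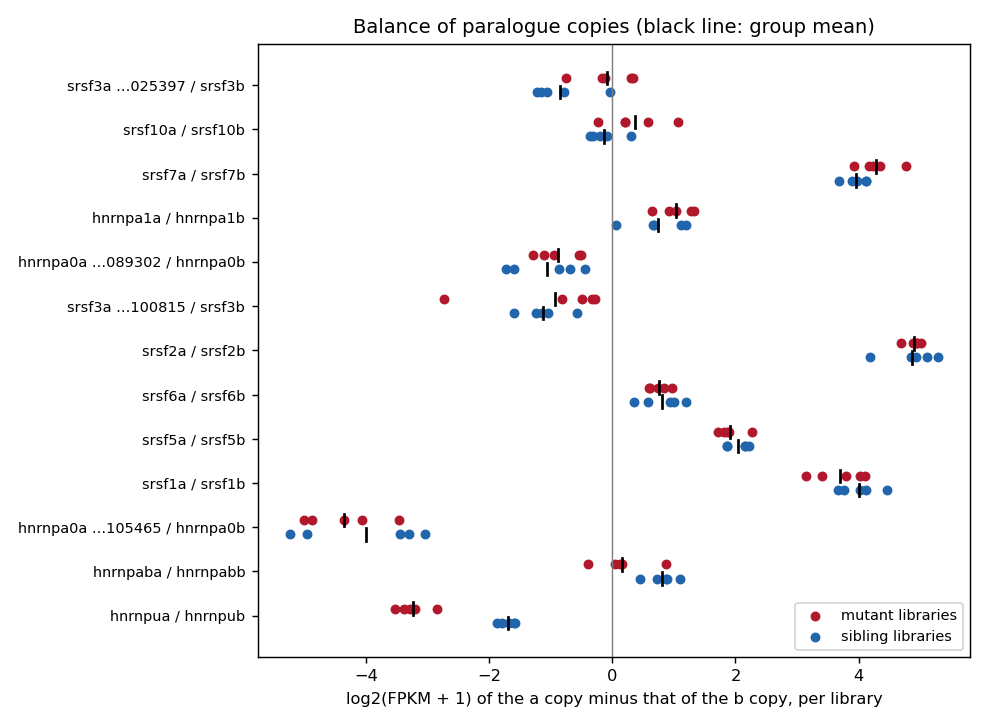
Log2(FPKM + 1) of the a copy minus that of the b copy for 13 row pairs, with 5 mutant libraries (red, upper row of each pair) and 5 sibling libraries (blue, lower row); black lines are group means. The hnrnpua over hnrnpub values of mutants, -3.52 to -2.84, lie apart from those of siblings, -1.86 to -1.57, and all other pairs overlap.

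Genes that act with the SR and hnRNP proteins were counted in 5 lists, chosen with earlier results of these data known. Together 14 of their 115 tested rows rose and 10 fell, or 20.9% called against 14.3% of all genes. Among 14 tested kinases of SR proteins and their partners 1 rose and 2 fell, or 7.14% and 14.3%, and the median of their log2 fold changes was 0.03. The SR protein kinase gene srpk1b (ENSDARG00000031560, chromosome 11, 2693814 to 2757208) had 3.42, 2.53, 4.07, 2.87 and 3.91 FPKM in mutants, against 10.3, 12.96, 12.3, 11.7 and 11.5 FPKM in siblings. All mutants lay far below all siblings (log2 fold change -1.56, limma adjusted p = 5.15e-05), while its copy srpk1a had 5.15 ± 0.94 FPKM in mutants and 4.95 ± 0.15 FPKM in siblings (limma adjusted p = 0.9016). prpf4ba, a kinase of the spliceosome, rose by 0.72 on the log2 scale. Its copy prpf4bb had 20.6 FPKM in mutants and 19.4 FPKM in siblings and did not pass (limma adjusted p = 0.7131). dyrk1aa, a kinase of nuclear speckle proteins, fell by 0.51, with an adjusted p of 0.0497. The adjusted p of dyrk1aa exceeded 0.05 without any one of mutants 3 to 6 and siblings 2, 4, 5 and 6 (0.0699 to 0.114). Its copy dyrk1ab did not pass (limma adjusted p = 0.7706).

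Of 30 tested SR-related genes 8 rose and 1 fell, or 26.7% and 3.33%, against 5.59% and 8.74% of all genes. Their median log2 fold change was 0.26. Since earlier results were known when the list was chosen, these shares are not independent of the data. luc7l, a partner of the U1 particle, had 68.3 ± 7.79 FPKM in mutants and 26.9 ± 2.65 FPKM in siblings, at a log2 fold change of 1.31 (limma adjusted p = 8.60e-05). srrm2, a large scaffold of nuclear speckles, had 92.3 ± 13.7 FPKM in mutants and 38.98 ± 2.23 FPKM in siblings, at a log2 fold change of 1.21 (limma adjusted p = 2.04e-04). tra2b, an enhancer-binding SR-like factor that lies on the chromosome of sf3b1, rose by 0.81 on the log2 scale, and luc7l3 by 0.67.

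Of 32 tested hnRNP-like genes under other symbols 3 rose and 5 fell, or 9.38% and 15.6%, against 5.59% and 8.74% of all genes, with a median log2 fold change of -0.01. taf15, which encodes an RNA-binding protein, had 20.03, 10.9, 22.9, 14.1 and 17.3 FPKM in mutants, against 70.1, 47.2, 66.8, 47.7 and 63.3 FPKM in siblings, at a log2 fold change of -1.75 (limma adjusted p = 2.47e-04). Every mutant was below every sibling. nono, a paraspeckle protein gene, rose by 0.66 on the log2 scale, its partner pspc1 fell by 0.80, and the row labelled matr3l1.1 (ENSDARG00000000394), of the matrin family, rose by 0.54. Another row with that symbol, ENSDARG00000001162, had 13.7 FPKM in mutants and 12.1 FPKM in siblings and did not pass (log2 fold change 0.17, limma adjusted p = 0.3744). Of 36 other RNA-binding splicing regulators 2 rose and 2 fell, or 5.56% each, with a median log2 fold change of -0.03: on the log2 scale rbm39a rose by 0.87 and zranb2 by 0.85, while khdrbs1a fell by 0.65 and rbm24a by 0.66. The call of khdrbs1a ended under quantile normalization (limma adjusted p = 0.416), and that of rbm24a ended without any one of mutants 3 to 6 or siblings 3 to 6 (0.0553 to 0.0877). Of the 3 import receptors of these proteins, tnpo1, tnpo2 and tnpo3, 0 passed in limma, adjusted or unadjusted. With sibling 2 counted as a mutant the calls of dyrk1aa, tra2b, taf15, nono, pspc1, matr3l1.1, rbm39a, zranb2, khdrbs1a and rbm24a ended (limma adjusted p = 0.0651 to 0.307).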

How the data were processed

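The values deposited by the authors are FPKM, one column for each library. The submitters' processing notes name Cufflinks 2.2.1, STAR 2.4.2a, Trim Galore and Picard, and the GRCz10 build. Libraries were made with a stranded kit, per the labels' protocols. FPKM hold no counts, so absolute depth is unknown; the commonest ratio of low values put each library's depth at 0.577 (mutant 3) to 1.26 (sibling 6) times that of mutant 1. Library sums were 293816 to 422870 FPKM. Starts in the table were raised by 1 base, after which 37 of 37 mitochondrial rows matched the reference starts. Groups follow the titles.

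The test was limma 3.58.1 (R 4.3.3; lmFit, eBayes with a trend), run on log2(FPKM + 1) of genes averaging 1 FPKM or more, adjusted by Benjamini-Hochberg over all genes. These fold changes understate those of low genes. Copy ratios and sf3b1 were tested by exact permutation (scipy 1.17.1). Simulated data served to test the limma step. Of 131 symbols in the lists of other regulators, 9 matched no row. Members past the threshold, the 6 most abundant, both copies of pairs described and up to 4 members of each list were named; others were chosen after their values were seen. Members and lists were chosen with earlier results of these data known.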

Additional observations from a re-analysis of the deposited data

Results flagged for a closer look

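In groups of 5 libraries the highest or lowest value was singled out when its gap to the nearest other, as a share of the group's range, passed Dixon's 95% critical value, which chance does in about 1 of 20 groups. Of 110 groups checked 4 held such a value. hnrnpk had 107.2 FPKM in sibling 6, against 75.0 to 84.1 FPKM in the other siblings, and its call held without that library (log2 fold change -0.60, limma adjusted p = 0.0224). hnrnpr had 19.03 FPKM in sibling 3, against 27.4 to 29.8 FPKM in the other siblings. hnrnph1 had 3.741 FPKM in mutant 1, against 1.98 to 2.44 FPKM in the other mutants. The log2 ratio of srsf3a (ENSDARG00000100815) over srsf3b was -2.733 in mutant 1, against -0.82 to -0.28 in the other mutants. Without that library the mutants exceeded the siblings in this ratio by 0.64, against 0.19 with it (exact permutation p = 0.0317, adjusted over the pairs p = 0.1032, against p = 0.7698 and adjusted p = 0.8340). Mutant 1 was singled out by its low value in this same ratio, so the p without it is no test of a difference.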

How the results depend on the processing

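Depth is unknown and 5 libraries per group limit the precision. Counts moved most with sibling 2 counted as a mutant, when 1 member rose and 1 fell (srsf 1 and 1, hnrnp 0 and 0), as did 300 and 461 of all genes and 4 and 1 of the other regulators. Median of ratios scaling gave 8 rising members (3 hnrnp), and quantile normalization 2 rising hnrnp rows. The equal-sum scaling gave 4 falling regulators and 854 falling genes. No filter gave 3 rising members (2 srsf) and 5 falling regulators, with 605 rising and 895 falling of 25707 genes tested. A mean of at least 5 FPKM gave 2 rising hnrnp rows, with 568 rising and 755 falling of 6284 genes tested. Array weights gave 4 falling members (1 srsf) and 2 rising hnrnp rows, with 921 rising and 1483 falling of all genes. Limma without the trend gave 0 rising hnrnp rows, against 1 with it. At an unadjusted p under 0.05 with the trend, 5 hnrnp rows were higher, as were 1480 of all 13003 genes tested. Without mutant 1 and sibling 2 together, 1 srsf row fell and 2 hnrnp rows rose, while 758 of all genes rose and 1258 fell. The cause of these shifts was not tested. Leaving out each library gave 2 to 5 rising and 2 to 3 falling members, 2 to 4 rising and 0 to 1 falling srsf rows, 0 to 2 rising and 2 to 3 falling hnrnp rows, 524 to 735 rising and 741 to 1238 falling genes (741 without sibling 4), and 11 to 14 rising and 4 to 11 falling regulators. It gave 0 differing copy ratios, which says nothing about their stability, since a lone pair could not pass the adjustment with so few libraries. Of the 4 replicate numbers that the groups share, same-numbered libraries had deviations from the group means with correlations of -0.028 to 0.151. Of these libraries 4 of 8 correlated best with their own number. Higher correlations joined different numbers, at 0.297 for mutant 1 with sibling 2 and 0.175 for mutant 4 with sibling 3. These values come from the data and not from the design. Whether equal numbers mark a shared origin is not known, and they were not treated as pairs. With the replicate block 5 members rose and 3 fell (3 and 1 srsf, 2 and 2 hnrnp), as did 701 and 1158 of all genes. Replicate numbers 1 and 2 each occur in 1 group only, so mutant 1 and sibling 2 add nothing to the group difference there. Its log2 fold changes equal those without both libraries (srsf9 at -0.73 in each), so the block is not a separate check. With the block srsf9 was called lower (limma adjusted p = 0.0186), srsf2a (0.0358) and hnrnpl2 (0.0384) were called higher, and the calls of srsf1b (0.0937), srsf3a (0.0741), pspc1 (0.0578) and zranb2 (0.0645) ended.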
